A study of Homo sapiens with 7 samples.

Results

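The myosin heavy chains described here are the 8 genes MYH7B, MYH6, MYH7, MYH3, MYH9, MYH10, MYH11 and MYH14, taken by symbol from the 60234 genes of the deposited expression table. All 8 were found, and all 8 reached the mean of 1 TPM, the abundance unit of that table, needed to be tested. TPM scales each transcript by its length and by the total of its library, so levels of different genes can be set side by side. The cells were cardiomyocytes differentiated from WTC-11, an established human induced pluripotent stem cell line, and matured for 35 days. All cultures then took up an ASO (antisense oligonucleotide, a synthetic strand that pairs with a chosen RNA) passively, at 2 uM for 96 h. The labels place 3 libraries under a scrambled ASO and 4 under an ASO against MYH7B, and no untreated culture is among them. Cell line, maturation, dose and time were shared by both groups. Nothing in the labels says that the libraries of a group came from separate differentiations, so p-values measure only the spread between these libraries. The values of MYH7B ASO replicate 1 were deposited out of register with the gene identifiers. The main comparison therefore used the 3 scrambled ASO libraries and MYH7B ASO replicates 2, 3 and 4, and replicate 1 was added only after reordering.

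Myosin II is a motor made of a pair of heavy chains, which bind actin and split ATP, and light chains bound to their necks. In heart muscle, MYH6 encodes the fast alpha chain, typical of the atrium, and MYH7 the slow beta chain, typical of the adult human ventricle. MYH7B is an older relative of both, whose heart transcript the study title treats as a noncoding RNA. MYH3 encodes the embryonic skeletal chain, MYH11 the smooth muscle chain, and MYH9, MYH10 and MYH14 the nonmuscle chains IIA, IIB and IIC of the general cytoskeleton.

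The 3 sarcomeric genes MYH6, MYH7 and MYH7B each carry a microRNA inside the gene, and these mature sequences are shown because the host transcripts are what the comparison measured. They are given 5′ to 3′ from RefSeq (GRCh38.p14), with the seed, bases 2 to 8, in capitals.

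miR-208a-3p, within MYH6, chr14:23388602-23388623, minus strand: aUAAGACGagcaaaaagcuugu

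miR-208b-3p, within MYH7, chr14:23417997-23418018, minus strand: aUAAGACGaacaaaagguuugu

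miR-499a-5p, within MYH7B, chr20:34990408-34990428, plus strand: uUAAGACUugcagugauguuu

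The microRNAs hosted by MYH6 and MYH7 share their seed, and the seed of miR-499a-5p matches theirs at 6 of 7 bases. None of the 3 hairpins overlaps an exon of its host in GENCODE 29. The MIR208A and MIR208B genes were listed at 0 TPM in all 7 libraries. MIR499A was listed at 94.2, 0 and 6.55 TPM in scrambled ASO replicates 1, 2 and 3 and at 0 in every MYH7B ASO library. Poly-A selected RNA does not capture mature microRNAs, so these values say nothing of their levels.

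With the scrambled ASO, MYH6 and MYH7 were the leading heavy chains, at means of 1169 and 962 TPM. Below them stood MYH9 at 97.6, MYH10 at 79.7 and MYH11 at 70.1 TPM, then MYH7B at 28.2 TPM, MYH14 at 2.44 TPM and MYH3 at 1.41 TPM. The ranges of MYH6 and MYH7 overlapped, as did those of MYH9 and MYH10, of MYH10 and MYH11, and of MYH14 and MYH3. Within libraries, MYH9 was above MYH10 in 3 of 3, while the order of each of the other pairs held in 2 of 3. With the MYH7B ASO the order of the first 6 genes was the same. MYH6, MYH7, MYH9 and MYH10 were then each separated from the next gene in the order, and MYH11 and MYH7B overlapped. The other 7 heavy chain genes of the family, MYH1, MYH2, MYH4, MYH8, MYH13, MYH15 and MYH16, were all under the mean of 1 TPM and were not tested. Of 8 skeletal muscle markers, 1 was listed at 0 in all libraries, MYF5, and the others had scrambled ASO means from 0 TPM for PAX7 to 404 TPM for CKM, the muscle creatine kinase that heart muscle also makes. The myogenic factors MYOD1 and MYOG had means of 0.977 and 0.533 TPM, and skeletal actin ACTA1 28.3 TPM. The cardiomyocyte genes TNNT2 and ACTN2, the thin filament troponin T and the Z-disc actinin, had means of 1238 and 200.1 TPM with the scrambled ASO.

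**Figure D1:**
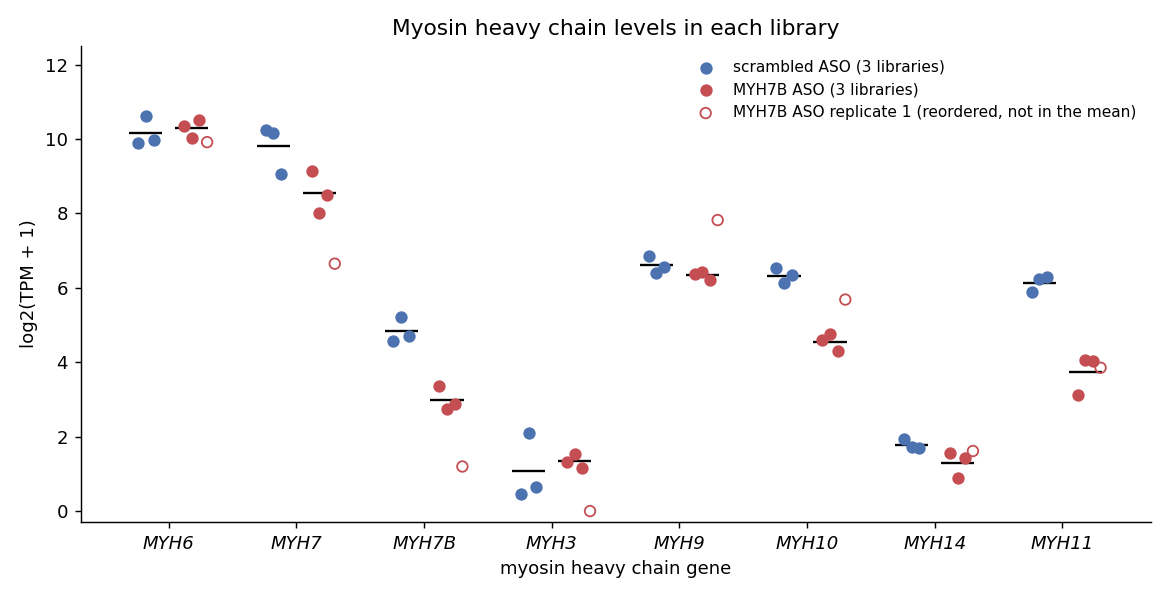
Each point is the log2(TPM + 1) of 1 library for 1 of the 8 genes, with scrambled ASO in blue and MYH7B ASO in red, and the black line is the mean of 3 libraries. The open circle is MYH7B ASO replicate 1 after reordering, and the groups of MYH7B, MYH10, MYH11 and MYH14 do not overlap.

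Of the 8 heavy chains, MYH11, MYH7B and MYH10 fell with the MYH7B ASO and none rose. MYH11 fell 5.44-fold, MYH7B, the ASO target, 3.98-fold and MYH10 3.53-fold in mean TPM, while MYH6 and MYH9 had intervals that include no change. These calls are from limma on log2(TPM + 1) over 15988 genes, at an adjusted p under 0.05. Over all tested genes, 1.66% were called and 1.48% were called lower, against 3 of the 8 members. In the authors' deposited table the same 3 members had an adjusted p-value under 0.05, where 5.69% of genes with an adjusted p-value were lower and under that threshold. The libraries behind the authors' values may differ from the 6 used with limma. The shrunken log2 fold changes in the authors' deposited table were -1.58 for MYH7B, -1.60 for MYH10 and -1.90 for MYH11. For MYH7 the authors' deposited table gives -0.67 with an adjusted p-value of 0.0730, which misses the threshold as it does with limma. The median log2 fold change was -0.88 over the members and -0.04 over all genes tested. MYH7B is the ASO target, and the members were chosen with earlier results of these data known. The count of 3 and the member median are therefore descriptions and no test of the family.

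MYH7B lies on chromosome 20 at 34975403 to 35002437 on the plus strand of GRCh38, the position given by GENCODE 29. It was at 23.0, 36.5 and 25.1 TPM with the scrambled ASO and at 9.30, 5.65 and 6.31 TPM in MYH7B ASO replicates 2, 3 and 4. Every targeted library was below every scrambled one. The mean with the MYH7B ASO was 25.1% of that with the scrambled ASO. On the log2 scale limma put the change at -1.85 (95% interval -2.39 to -1.31, adjusted p = 0.0109). Without MYH7B ASO replicate 4 the limma adjusted p was 0.0618. Its last 34 bp overlap TRPC4AP on the other strand, and strand use in the counting is not given in the sources used here.

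MYH11, the smooth muscle heavy chain, had the widest change of the family. It lies on chromosome 16 at 15703172 to 15857033, on the minus strand. Its level was 58.6, 74.2 and 77.6 TPM with the scrambled ASO and 7.64, 15.6 and 15.4 TPM in MYH7B ASO replicates 2, 3 and 4. The groups were far apart, with the highest targeted library under the lowest scrambled one by more than the range within either group. The log2 fold change, -2.41 (SE 0.27, interval -3.02 to -1.80, limma adjusted p = 0.00599), ranked 19 among the lower genes by size. MYH11 was the 1 member called with all 7 libraries (limma adjusted p = 0.00490), where replicate 1 had 13.4 TPM. The end of MYH11 overlaps 23182 bp of NDE1 on the opposite strand. NDE1, a dynein regulator of cell division, was at 12.9 to 15.7 TPM with the scrambled ASO and 12.1 to 18.9 TPM in the 3 targeted libraries.

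MYH10 encodes nonmuscle myosin IIB, which shapes the cytoskeleton of the developing heart. It lies on chromosome 17 at 8474205 to 8630761, on the minus strand. It was at 90.9, 68.5 and 79.8 TPM with the scrambled ASO and 23.0, 26.0 and 18.8 TPM in MYH7B ASO replicates 2, 3 and 4. The highest targeted library was thus under the lowest scrambled one. Its change on the log2 scale was -1.78 (SE 0.17, interval -2.17 to -1.38, limma adjusted p = 0.00441). In reordered replicate 1 MYH10 was at 50.4 TPM, still below the scrambled libraries, and with all 7 libraries the limma adjusted p was 0.0588. MYH10 overlaps 16207 bp of NDEL1 on the opposite strand, where 4 of its 11 transcripts have exons. NDEL1, a dynein regulator, was at 9.40 to 16.6 TPM with the scrambled ASO and 11.5 to 16.03 TPM in the 3 targeted libraries.

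MYH9, which encodes nonmuscle myosin IIA, lies on chromosome 22 at 36281277 to 36388067 on the minus strand and was not called. It was at 115.5, 83.7 and 93.7 TPM with the scrambled ASO and 81.2, 85.2 and 73.3 TPM in MYH7B ASO replicates 2, 3 and 4. The groups overlapped. Its log2 fold change was -0.28 with an interval from -0.63 to 0.08 (limma adjusted p = 0.448). In reordered replicate 1 it was at 225 TPM, above every other library, and with all 7 libraries its log2 fold change was 0.09.

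The ratio of MYH10 to MYH9 tested whether the change of one nonmuscle chain differed from that of the other. It was 0.787, 0.819 and 0.852 with the scrambled ASO and 0.284, 0.305 and 0.256 in MYH7B ASO replicates 2, 3 and 4. These values were tight within each group and far apart between them. Mean log2 ratios were -0.29 ± 0.06 and -1.83 ± 0.13 (SD, n = 3 each), which differ by -1.54 (2-sided exact permutation test, p = 0.1, the smallest that 3 against 3 can give). Reordered replicate 1, with a ratio of 0.224, lay with the other targeted libraries, and over all 7 libraries the exact permutation p was 0.0286, the smallest possible. Adjusted over the 4 ratios and sums compared, that exact p became 0.114.

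MYH14, the nonmuscle IIC chain on chromosome 19 at 50188186 to 50310544, was scarce. It was at 2.85, 2.27 and 2.22 TPM with the scrambled ASO and 1.94, 0.839 and 1.71 TPM in MYH7B ASO replicates 2, 3 and 4. The groups did not overlap, yet the log2 fold change of -0.49, with an interval from -1.20 to 0.22, was not called (limma adjusted p = 0.507). In all, 4 members did not overlap between groups and were lower, MYH7B, MYH10, MYH11 and MYH14, while 14.1% of all tested genes did so. With 7 libraries there were again 4 such members, against 10.2% of tested genes, and 0.967% of genes were called lower.

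**Figure D2:**
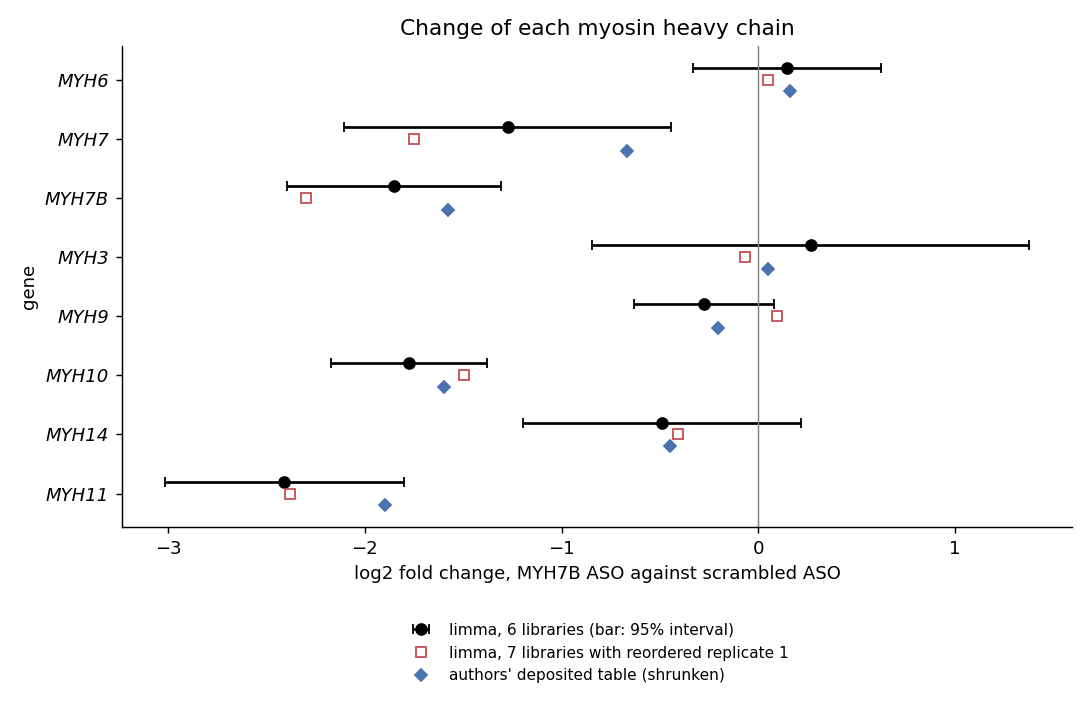
Log2 fold changes of each member, MYH7B ASO against scrambled ASO. Circles with bars are limma estimates from 6 libraries with their 95% intervals, squares are those from 7 libraries, and diamonds are the shrunken values of the authors' deposited table. The intervals of MYH7, MYH7B, MYH10 and MYH11 lie below 0.

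MYH9, MYH10 and MYH14 together were at 209, 154.5 and 176 TPM with the scrambled ASO and 106, 112 and 93.8 TPM in MYH7B ASO replicates 2, 3 and 4. The log2 difference was -0.78 and the groups did not overlap (2-sided exact permutation test, p = 0.1, the smallest possible). Reordered replicate 1, at 277.5 TPM, was above every other library, and with it the difference was -0.43 (exact permutation p = 0.343).

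Neither of the main cardiac chains passed the test over all genes, though their ratio separated the groups. MYH7, on chromosome 14 at 23412738 to 23435718, was at 1207, 1146 and 535 TPM with the scrambled ASO and 568, 256 and 358 TPM in MYH7B ASO replicates 2, 3 and 4. The groups overlapped through scrambled ASO replicate 3. Its log2 fold change of -1.27 had an interval from -2.11 to -0.44 and was not called over all genes (limma adjusted p = 0.148). Without scrambled ASO replicate 3 the log2 fold change was -1.65 (limma adjusted p = 0.0633), the nearest to the threshold when any 1 of the 6 libraries was left out.

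MYH6 lies beside MYH7, at 23381990 to 23408277. It was at 954, 1555 and 998 TPM with the scrambled ASO and 1309, 1048 and 1459 TPM in MYH7B ASO replicates 2, 3 and 4, with full overlap of the groups. Its log2 fold change was 0.14 with an interval from -0.33 to 0.62 (limma adjusted p = 0.788). Per library, the log2 of MYH7 over MYH6 was 0.34, -0.44 and -0.90 with the scrambled ASO and -1.20, -2.03 and -2.03 in MYH7B ASO replicates 2, 3 and 4. The group means differed by -1.42 and the groups did not overlap (2-sided exact permutation test, p = 0.1, the smallest possible, and p = 0.0571 with all 7 libraries). Their summed TPM differed by -0.34 on the log2 scale, within the spread between libraries (exact permutation p = 0.400).

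**Figure D3:**
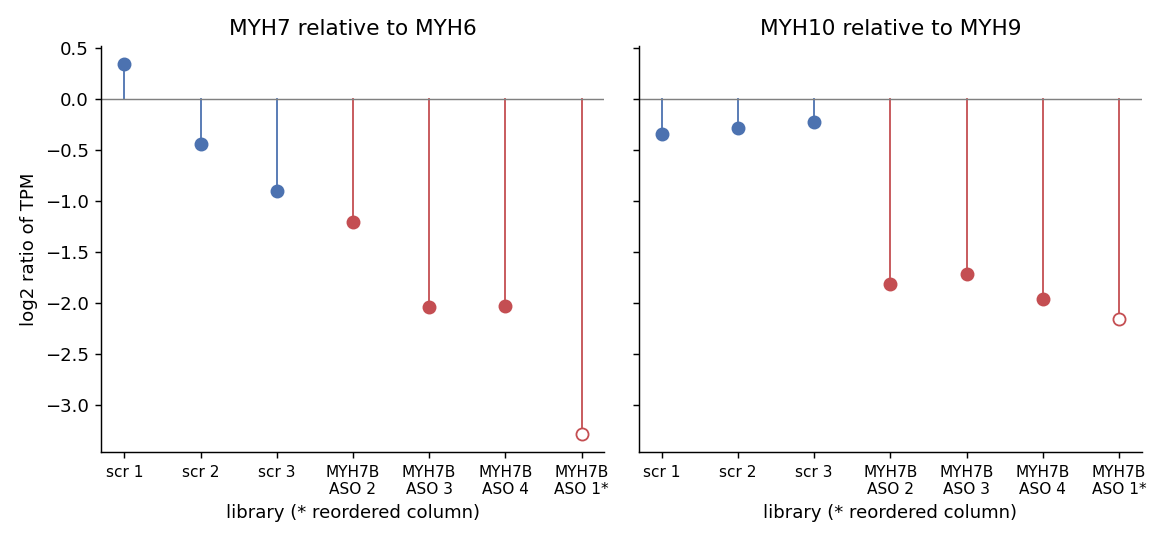
Log2 ratio of MYH7 to MYH6 TPM (left) and of MYH10 to MYH9 TPM (right) in each library. Blue is scrambled ASO (scr), red is MYH7B ASO, and the open circle is the reordered replicate 1. The MYH10 to MYH9 ratio ranges from -0.35 to -0.23 with the scrambled ASO and from -1.96 to -1.71 in MYH7B ASO replicates 2, 3 and 4.

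MYH6 and MYH7 are near copies, and the division of their shared reads depends on a counting method not given in the sources used here. Of all 50-base windows of the MYH7 transcripts in GENCODE 29, 14.5% also occur in MYH6, and 13.6% of those of MYH6 occur in MYH7. For MYH9, MYH10, MYH11, MYH14, MYH3 and MYH7B, at most 0.506% of windows occur in any other member. MYH3, on chromosome 17 at 10628526 to 10657309, stayed scarce, at 0.371, 3.31 and 0.562 TPM with the scrambled ASO and 1.503, 1.90 and 1.21 TPM in MYH7B ASO replicates 2, 3 and 4. Its log2 fold change of 0.27 had an interval from -0.84 to 1.38 (limma adjusted p = 0.839).

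As shares of the summed TPM of the 8 genes, MYH6 made up 38.9%, 52.4% and 55.1% of heavy chain transcripts with the scrambled ASO and 65.4%, 72.8% and 75.5% in MYH7B ASO replicates 2, 3 and 4. MYH6 thus took a larger share in each targeted library, at a TPM that did not differ beyond the spread. MYH7 went from a mean share of 39.1% ± 9.85 (SD, n = 3) to 21.6% ± 5.92 (SD, n = 3). MYH10 went from 3.47% ± 1.07 to 1.31% ± 0.44 and MYH11 from 3.06% ± 1.06 to 0.755% ± 0.354 (SD, n = 3 each). MYH9 held 4.23% ± 1.25 and 4.59% ± 1.16 (SD, n = 3 each). All 8 genes together made up 0.181% to 0.297% of TPM with the scrambled ASO and 0.144% to 0.2001% in these 3 targeted libraries.

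**Figure D4:**
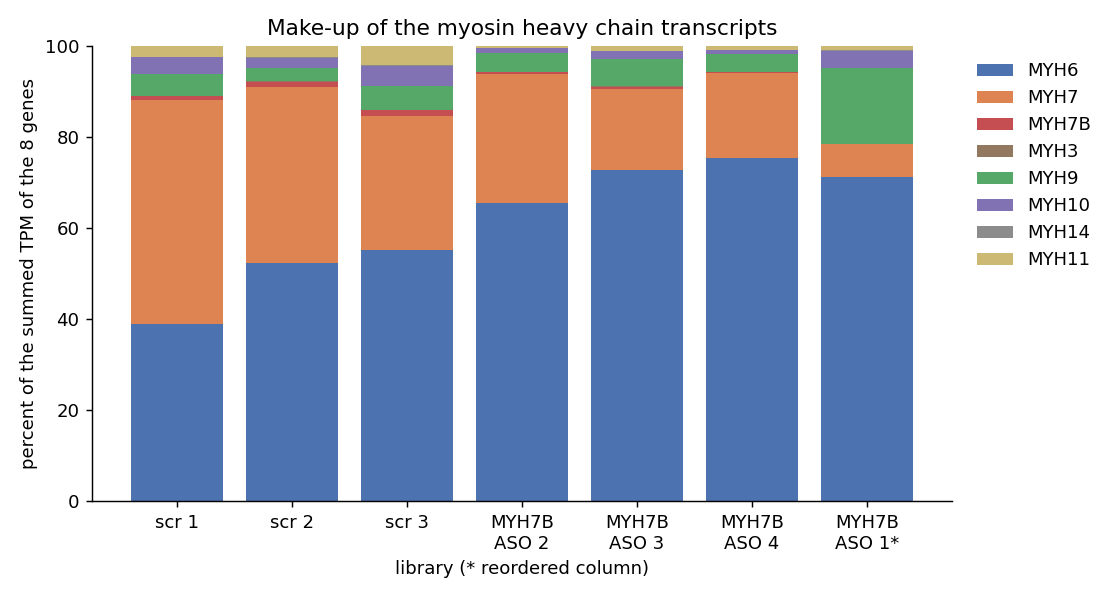
Stacked bars give each gene's percent of the summed TPM of the 8 heavy chains in each library, scrambled ASO (scr) first and the reordered replicate 1 last. The MYH6 part is largest in the MYH7B ASO libraries, and replicate 1 has a MYH9 part of 16.6%.

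The start regions of 4 members, MYH6, MYH9, MYH10 and MYH14, were in the RefSeq promoter table. M-CAT elements, the sites of TEAD transcription factors, have the core CATTCC. These letters, or GGAATG on the other strand, were searched in the 250 bases before each start. They occurred once each in MYH6, MYH9 and MYH10 and not in MYH14, and in 11.9% of the 35116 promoters of the table. The matches are shown because MYH10 fell while MYH6 and MYH9, which hold the same letters, were not called. Each is given 5′ to 3′ on the strand of its gene (GRCh38.p14) with the match in capitals.

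MYH10, 200 bases, chr17:8630776-8630975, minus strand: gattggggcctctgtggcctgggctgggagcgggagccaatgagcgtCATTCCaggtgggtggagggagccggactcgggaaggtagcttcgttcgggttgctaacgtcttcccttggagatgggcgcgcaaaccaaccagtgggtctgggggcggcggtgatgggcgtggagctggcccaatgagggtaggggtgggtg

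MYH6, 30 bases, chr14:23408494-23408523, minus strand: ctttgaaggggaGGAATGtgcccaaggact

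MYH9, 30 bases, chr22:36388020-36388049, minus strand: ggctcccggctgGGAATGgtcccgcggctc

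RefSeq starts differ from the GENCODE gene ends printed above: they are 36387967 for MYH9, 8630725 for MYH10 and 23408273 for MYH6, which lie 100, 36 and 4 bases inside the GENCODE gene. The MYH9 match is therefore within the GENCODE gene. For MYH14 the RefSeq start lies 15436 bases inside the GENCODE gene, so the window searched there is that of a later start. Counted from the RefSeq starts, the match began 203 bases before the start of MYH10, 238 before that of MYH6 and 70 before that of MYH9. In MYH10 it reads in the direction of the gene, and in MYH6 and MYH9 it lies on the opposite strand. A match of letters is a description of the sequence and not a bound site.

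The factors and partners of the heavy chains were counted in fixed lists. Of 15 regulators of MYH6 and MYH7, 2 fell and none rose, with a median log2 fold change of -0.02. Over all tested genes 1.48% were called lower. An unadjusted limma p under 0.05 was found for 6 of the 15, and for 15.2% of all tested genes. TEAD3 had 35.3 ± 1.68 TPM with the scrambled ASO and 9.41 ± 0.761 TPM with the MYH7B ASO (SD, n = 3 each), -1.80 on the log2 scale (limma adjusted p = 0.00209). TEAD1 had 41.8 ± 2.26 and 24.2 ± 0.315 TPM (SD, n = 3 each), -0.76 on the log2 scale (limma adjusted p = 0.0316). TEAD1 was not called when any 1 of the 6 libraries was left out (limma adjusted p from 0.0633 to 0.132) or with all 7 libraries (0.0657). THRB and MEF2A, not called by limma (adjusted p = 0.133 and 0.0976), were lower in the authors' deposited table (adjusted p-values 0.00105 and 0.00436). TEAD1 and TEAD3 were lower and under 0.05 there too, as were 5.69% of all genes with an adjusted p-value there.

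Of 6 tested sarcomeric light chains, MYL2 and MYL4 fell, where 1.48% of all tested genes were called lower. An unadjusted limma p under 0.05 was found for 3 of the 6, and for 15.2% of all tested genes. MYL2, the ventricular regulatory chain, went from 18.8 ± 2.62 to 4.25 ± 1.69 TPM and MYL4, the atrial essential chain, from 1043 ± 197 to 376 ± 41.6 TPM (SD, n = 3 each). Their log2 fold changes were -1.96 and -1.46 (limma adjusted p = 0.0121 and 0.00599). The call of MYL2 was lost without scrambled ASO replicate 1 (limma adjusted p = 0.0556). Over the list the median was -0.15. None of the 5 nonmuscle and smooth muscle light chains was called or had an unadjusted limma p under 0.05, with a median log2 fold change of -0.21. The largest values were -0.49 for MYL12A and -0.24 for MYL9.

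Among 8 tested thick filament partners, the M-band proteins MYOM1 and MYOM2 fell, with log2 fold changes of -0.996 and -1.65 (limma adjusted p = 0.0316 and 0.0115). MYOM1 went from 132 ± 18.4 to 65.8 ± 11.6 TPM and MYOM2 from 49.3 ± 4.997 to 15.4 ± 4.96 TPM (SD, n = 3 each). MYOM1 was not called when any 1 of the 6 libraries was left out or with 7 libraries (limma adjusted p = 0.0918), and MYOM2 was lost without scrambled ASO replicate 1 or MYH7B ASO replicate 2. The list median was -0.24, and 3 of the 8 had an unadjusted limma p under 0.05, which 15.2% of all tested genes had. Over all tested genes 1.48% were called lower.

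None of the 10 genes of myosin folding and turnover was called or had an unadjusted limma p under 0.05. Their log2 fold changes ran from -0.24 for SMYD2, a lysine methyltransferase, to 0.22 for UNC45A, a myosin chaperone, with a median of 0.08. Of 15 tested genes controlling nonmuscle myosin, none was called by limma and 5 had an unadjusted p under 0.05, which 15.2% of all tested genes had, with a median log2 fold change of -0.17. The largest value was -1.38 for MYLK, the myosin light chain kinase, at 94.7 ± 26.6 and 36.5 ± 13.4 TPM (SD, n = 3 each, limma adjusted p = 0.0845). CIT, the cytokinesis kinase citron, had -0.97 (limma adjusted p = 0.352). In the authors' deposited table MYLK, ROCK1 and CIT were lower, with adjusted p-values of 0.00029, 0.00338 and 0.00743. No other gene of this list was under 0.05 there. Of all genes with an adjusted p-value there, 5.69% were lower and under 0.05. For comparison, the median over all genes was -0.04.

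**Figure D5:**
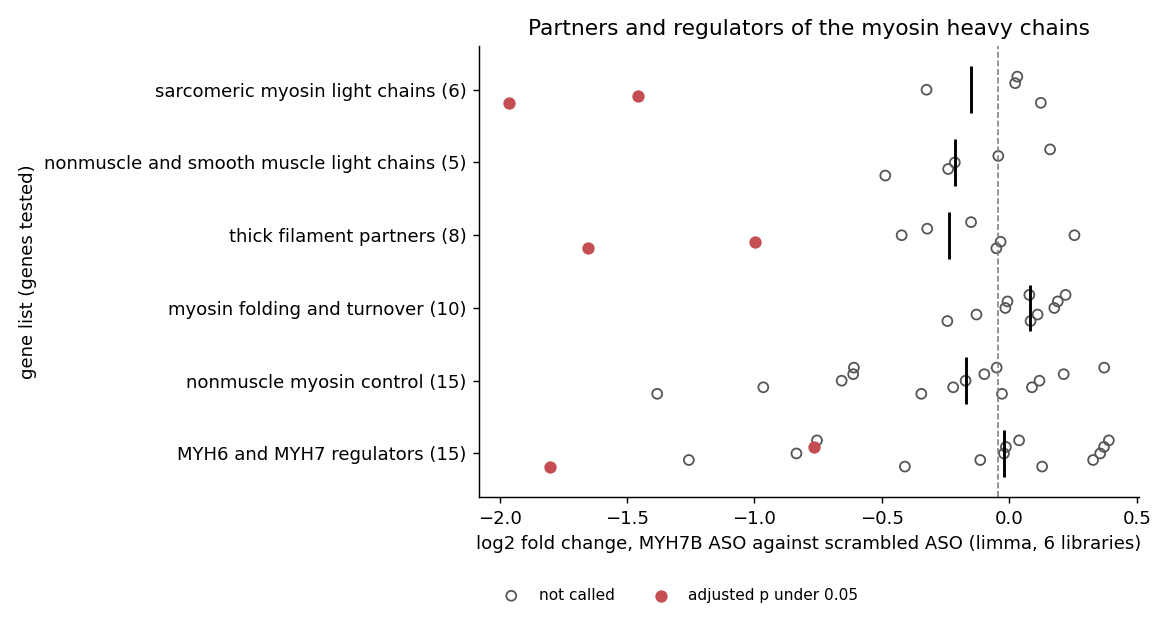
Log2 fold changes of the tested genes in 6 fixed lists, from limma on 6 libraries. Filled circles have an adjusted p under 0.05, black bars are list medians, and the dashed line is the median of all tested genes, -0.04. The filled circles are MYL2, MYL4, MYOM1, MYOM2, TEAD1 and TEAD3, all to the left.

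Markers of other cell types that use MYH9, MYH10 and MYH11 were read in the same libraries. In bulk RNA, fewer cells of a type and less RNA per cell cannot be told apart. The summed TPM of 9 fibroblast markers was 2908 to 5255 with the scrambled ASO and 1366 to 2103 in MYH7B ASO replicates 2, 3 and 4. Of these 9, COL1A2 and LUM were called lower, as were 1.48% of all tested genes. Each of these 2 calls was lost in 5 of the 6 fits that left out 1 library and with all 7 libraries (limma adjusted p = 0.207 for COL1A2 and 0.391 for LUM). PDGFRA and TCF21 went the other way, with log2 fold changes of 0.60 and 0.71 (limma adjusted p = 0.152 and 0.168). The rest of the list had negative log2 fold changes. The summed TPM of 7 smooth muscle markers, MYH11 not among them, was 1245 to 1782 and then 847 to 1033, with none called. ACTA2, smooth muscle actin, had a log2 fold change of -0.91 and TAGLN, an actin-binding protein, -1.24 (limma adjusted p = 0.0910 and 0.0649), while CNN1, calponin, had 0.24 (0.454). ACTA2 and DES, desmin, had the highest scrambled ASO means of the 7 smooth muscle markers, 551 and 368 TPM. No fibroblast or smooth muscle marker was at 0. In reordered replicate 1 both sums lay within the scrambled range, at 4159 and 1346 TPM. That library had MYH10 at 50.4 TPM, MYH11 at 13.4 TPM and a sum of cardiomyocyte markers of 3139 TPM, below every other library. The part of the fibroblast and smooth muscle markers in the falls of MYH10 and MYH11 was not tested, and 1 reordered library cannot decide it.

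The 8 cardiomyocyte markers summed to 4477 to 4743 TPM with the scrambled ASO and 3730 to 5564 TPM in those 3 libraries, with none called. Their median log2 fold change was -0.33, and the largest was -1.03 for RYR2, at means of 34.1 and 16.3 TPM (limma adjusted p = 0.0536). TNNI1 and NKX2-5 had positive values, 0.42 and 0.39, and the rest of the list negative ones. The 5 epithelial markers, read because epithelia use MYH14, summed to 1918 to 2251 and 2212 to 2693 TPM, with none called, and the largest change in that list was -0.97 on the log2 scale for CDH1, E-cadherin, at means of 14.5 and 7.41 TPM (limma adjusted p = 0.158). The other 4 had log2 fold changes from 0.0773 for KRT18 to 0.37 for EPCAM. The keratins KRT8, KRT18 and KRT19 carried most of the sum, at scrambled ASO means of 915, 742 and 452 TPM, while EPCAM was at 1.39 TPM. The 4 proliferation markers, read because MYH9 and MYH10 serve cell division, summed to 90.4 to 101 and 67.1 to 91.8 TPM, with none called. Of 3 tested skeletal muscle markers ACTA1, skeletal actin, was called lower, as were 1.48% of all tested genes. The call of ACTA1 was lost in 4 of the 6 fits that left out 1 library and with all 7 (limma adjusted p = 0.0621). Skeletal markers summed to 372 to 512 and 252 to 430 TPM, endothelial ones to 36.5 to 48.4 and 36.5 to 55.5 TPM, and epicardial ones to 290 to 352 and 220 to 342 TPM. Pluripotency markers summed to 1.88 to 2.87 and 1.49 to 2.49 TPM, and no gene of the last 3 lists was called. The mitochondrial share of TPM was 27.4% to 33.6% in the 6 libraries and 17.2% in replicate 1.

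The genes whose profiles over the 6 libraries lay nearest to those of 3 members were sought among the 7537 genes averaging 10 TPM or more. Likeness was the root mean square difference of log2(TPM + 1), each profile centred on its mean. The difference between groups is part of each profile, so genes with a fall of like size lie near each other. Nearest to MYH7B were FBXL7 at 0.18, TEAD3 at 0.22 and FBXL17 at 0.23. Their log2 fold changes were -1.85, -1.80 and -2.05, against -1.85 for MYH7B. Nearest to MYH10 were LEPR at 0.17, FAM114A1 at 0.18 and TEAD3 at 0.19, and nearest to MYH7 were CACNA1C at 0.27, SNRNP40 at 0.28 and INSR at 0.29. The member profiles themselves had a root mean square of 0.97, 0.91 and 0.81 for MYH7B, MYH10 and MYH7.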

How the data were processed

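Poly-A RNA of 7 libraries was compared through 2 tables. The deposited TPM, made by the authors, sum to 1000000 in each column and keep no sequencing depth, so no counting interval is given. The authors' deposited comparison table holds a mean normalized signal, shrunken log2 fold changes, a test score and p-values. Per the submitters' processing notes, DESeq2 and GRCh38.p13 were used. The aligner, quantifier and annotation are not given in the sources used here. No per-sample column was left unused (0).

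The column of MYH7B ASO replicate 1 filled 58721 of 60234 positions. Assigned to the sorted GENCODE 29 identifiers, which number 58721, its median correlation across genes with the other libraries went from 0.408 to 0.955. Pairs among the other 6 libraries were higher, at 0.959 to 0.979.

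Genes averaging 1 TPM or more were tested on log2(TPM + 1) with limma 3.58.1 in R 4.3.3 (eBayes with trend, Benjamini-Hochberg over all genes). This scale understates the change of low genes. On simulated data for this comparison (15988 genes), genes were shifted by 1 or 2 on the log2(TPM + 1) scale, as often up as down. Of shifts of 1, 57% were recovered, and of shifts of 2, 86%, with 7.14% false among those called. The changed genes were drawn only from above a higher level, so these rates do not cover genes as scarce as MYH14 and MYH3. Ratios and sums had exact permutation tests. Python 3.11.15, pandas 2.3.3 and matplotlib 3.10.9 were used.

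Named genes were the members, called members of the fixed lists (the largest changes where none was called) and the nearest profiles. The cell type markers held 9 lists. Members and lists were chosen with earlier results of these data known. Alternatives changed the pseudocount (0.1 and 5), the filter, the scaling, the limma settings, the libraries and the replicate block.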

Additional observations from a re-analysis of the deposited data

Results flagged for a closer look

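Within the 4 MYH7B ASO libraries, the 8 member levels and the 4 ratios and sums were each searched for 1 library standing off from the other 3, and 2 of these 12 had one, both in the reordered replicate 1. Chance gives about 1 in 20, and the 2 measures share MYH9. MYH9 was 225 TPM there, against 73.3 to 85.2 TPM in the others. The summed nonmuscle chains were 8.12 on the log2 scale, against 6.55 to 6.81.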

How the results depend on the processing

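The fold changes of MYH7, MYH7B, MYH10, MYH11 and MYH14 and all 4 ratios and sums kept their direction under every alternative run. With all 7 libraries, 170 genes and 1 member were called, MYH7B had -2.30 (limma adjusted p = 0.0525), MYH10 -1.49 (0.0588), MYH9 turned to 0.0949, MYH3 to -0.0671, and the summed nonmuscle chains differed by -0.43. With no minimum level, which takes in 32966 genes, 40 genes and 1 member (MYH10) were called, with limma adjusted p of 0.0779 for MYH7B at -1.85 and 0.0556 for MYH11 at -2.41. Without a variance trend 150 genes were called.

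The title numbers pair replicates 2 and 3 and the description numbers another 2 pairs, and no label says that a number marks a shared culture. Same-numbered libraries had correlations of deviations of 0.0759 and 0.110 by title and of -0.0729 and -0.0387 by description, with up to 0.0412 and 0.110 for other pairs. With a replicate block, which leaves 1 residual degree of freedom, limma called 0 genes and 0 members, with 1718 (title) and 1096 (description) genes and 4 members in each at an unadjusted p under 0.05. Fold changes by title and by description number were -1.92 and -2.17 for MYH7B, -1.56 and -1.70 for MYH10, -2.68 and -2.22 for MYH11 and -0.0895 and -0.0109 for MYH6. MYH3 was -0.0345 by description, and the nonmuscle sum differed by -0.60 by title.

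Leaving out each of the 6 libraries gave 53 to 149 called genes, 2 or 3 called members, and fold changes from -2.04 to -1.66 for MYH7B and from -0.0400 (without scrambled ASO replicate 1) to 0.79 for MYH3. With depth unknown, the spread of 3 libraries per group limits what can be called.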
